A study of Mus musculus with 9 samples.

Results

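Stat3 and 8 genes that respond to it or restrain it were followed by RNA-seq in 4T1 tumors from mice on a low-fat diet (LFD), a high-fat diet (HFD) or a high-fat diet with the LIFR inhibitor EC359 (HFD + EC359). The 9 genes were chosen by name, with earlier results of these data known: Stat3, the feedback inhibitors Socs1, Socs2, Socs3 and Cish, the kinases Pim1 and Pim3, and the regulators Bcl3 and Junb. They are 9 of the 22609 genes listed in the count tables, and all 9 were among the 13366 genes with enough counts to be tested. 4T1 is a mouse mammary carcinoma line used as a model of triple-negative breast cancer. BALB/c mice were fed 10 kcal% (LFD) or 60 kcal% fat (HFD) for 6 weeks, 500000 4T1 cells were then placed in the mammary fat pad, and the diets were kept until the end. Once tumors had formed, mice of this model received vehicle or EC359, the latter in the HFD + EC359 group at 5 mg/kg intraperitoneally on 5 days per week. The paper names its vehicle (0.3% hydroxypropyl cellulose) only for the MDA-MB-231 xenografts. It does not say whether the LFD mice with 4T1 tumors received vehicle. Each group had 3 libraries, and the labels state neither the age of the mice nor whether each library came from a separate animal, so that p-values measure only the spread between these libraries, which may be technical.

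STAT3 is a latent transcription factor. Cytokines of the IL-6 family, LIF among them, bind receptors that contain gp130, the attached JAK kinases phosphorylate STAT3, and STAT3 dimers enter the nucleus and switch on target genes. SOCS proteins and CISH are made in response and shut the receptor complexes off again, which is why their transcripts are widely read as a record of recent JAK-STAT signaling. PIM kinases, BCL3 and JUNB carry part of the response, in survival, NF-κB and AP-1 regulation respectively. The counts measured RNA in whole tumors, with tumor and host cells together, and phosphorylation of STAT3 was not measured in them. In bulk tumors, fewer cells of a type and less RNA per cell cannot be told apart.

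The library totals were 5085357 to 6509130 counts in LFD, 7314704 to 7922852 in HFD and 8043649 to 9751201 in HFD + EC359 tumors. The libraries differed by the GC content of their genes in the same order as the groups. Expression of the genes in the lowest GC quartile minus that of the highest, as a log2 difference centred on all libraries, was -0.54 to -0.32 in LFD, 0.10 to 0.16 in HFD and 0.25 to 0.30 in HFD + EC359. This touched most of the 9 genes, because 7 of them had exons with a GC content above the upper quartile of tested genes, which was 55.4%. Stat3, with 52.6%, and Socs2, with 49.3%, lay below it, and the other 7 ranged from 57.9% in Cish to 63.7% in Socs1. Changes are therefore given as tested and, beside them, after the trend of each library with GC content and exon length was removed. The summed expression of markers also moved with the groups, given here in CPM (counts scaled to library size with TMM factors). Markers of tumor epithelium summed to 2054 to 2220.0 CPM in LFD, 771 to 785 in HFD and 1141 to 1167 in HFD + EC359, with 6 of 6 lower in HFD and 5 of 6 higher with EC359. Most of this swing was Krt14, with means of 761, 40.6 and 237 CPM in the same order of groups, and Krt5 (252, 30.5 and 143). Krt8 (599, 408 and 442) and Krt18 (485, 292 and 304) moved less, and Krt18 did not pass with EC359. Fibroblast markers summed to 7465 to 8925, 13153 to 13899 and 3639 to 3743 CPM, with 6 of 6 higher in HFD and, with EC359, 4 lower and 1 higher. Endothelial markers were higher in HFD in 5 of 5 (197 to 207 CPM against 353 to 381) and lower with EC359 in 4 of 5 (292 to 306 CPM). Of 5 macrophage markers 3 were higher and 2 lower in HFD (1154 to 1204 CPM in LFD, 1021 to 1042 in HFD), and 4 were higher with EC359 (1260.1 to 1293). Of 4 neutrophil markers 2 were higher in HFD and 4 with EC359 (97.9 to 118, 124 to 135 and 158 to 164 CPM). The summed CPM of the remaining lists, in the same order of groups, were 144 to 155, 97.1 to 105 and 126 to 133 for epidermis, 87.5 to 93.1, 108 to 119 and 61.4 to 67.2 for skeletal muscle, 7.97 to 10.0, 20.8 to 24.8 and 21.7 to 25.6 for adipocytes, and 9.20 to 12.5, 7.72 to 9.32 and 12.7 to 13.7 for T and B cells. The adipocyte sum was mostly Fabp4, with means of 6.20 CPM in LFD, 20.0 in HFD and 19.4 in HFD + EC359. It was the only one of 3 tested adipocyte markers called with the diet, and Plin1 and Cidec did not pass there. No marker was at 0 in all 9 libraries, while the B cell genes Cd79a and Ms4a1 and the adipocyte genes Adipoq and Lep were under 1 CPM in all 9. The part of these cell types in the changes of the 9 genes was not tested.

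In HFD compared with LFD tumors, transcripts of the feedback inhibitors Socs1, Socs3 and Cish, of both PIM kinases and of Junb were lower, while Stat3 itself, Socs2 and Bcl3 did not pass the test. With EC359, Stat3, Socs3, Pim1, Pim3, Bcl3 and Junb were lower than in HFD tumors, and Cish was higher. The declines with EC359 were small, between 1.10-fold for Stat3 and 1.34-fold for Junb, and those with the diet reached 1.96-fold for Pim3. The diet calls of Socs1, Cish and Junb, and none of the EC359 calls, were lost once the GC and length trend described above was removed. The HFD libraries enter both comparisons, so that the comparisons are not independent of each other.

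**Figure D1:**
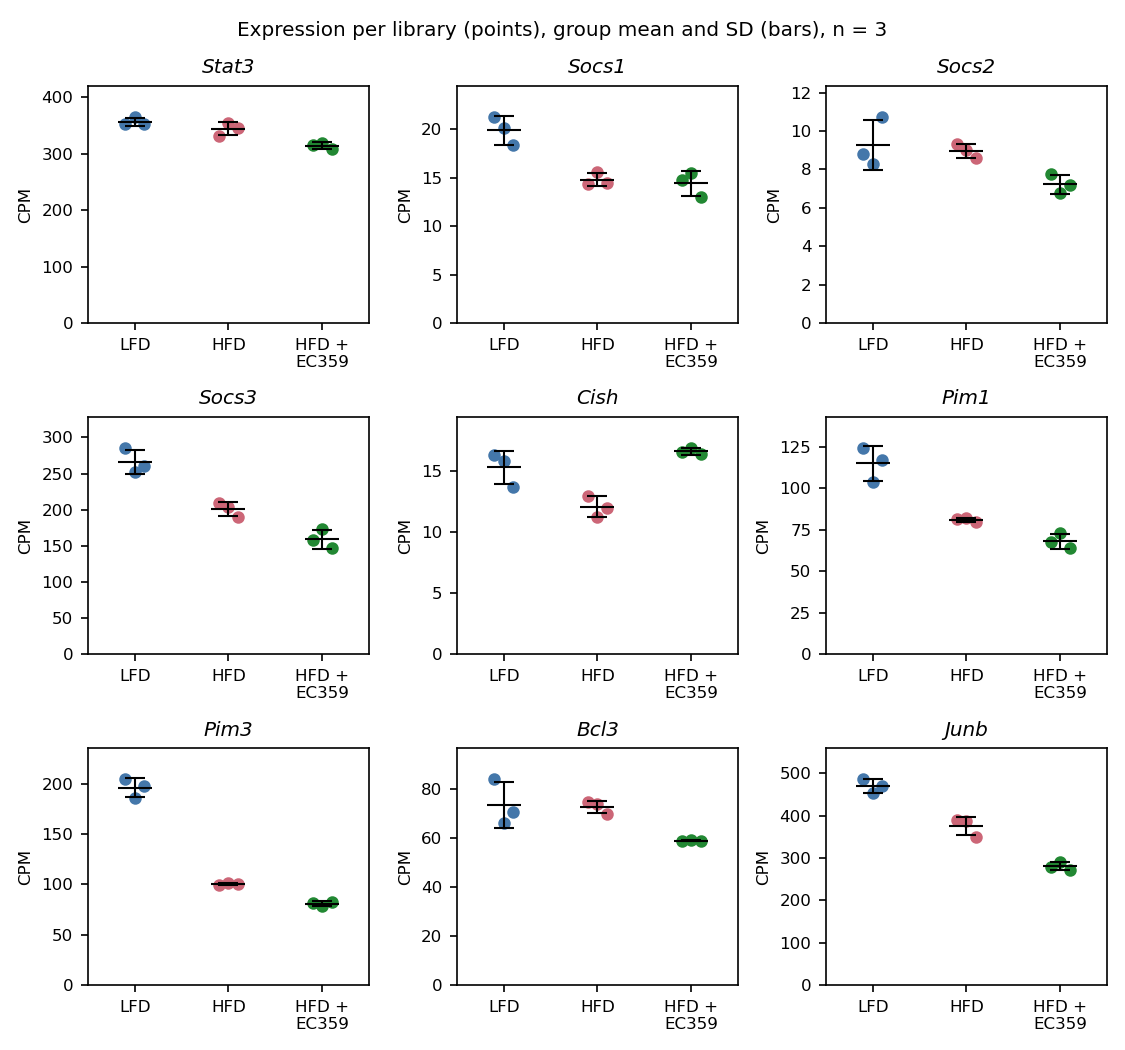
TMM-scaled CPM (vertical axes, starting at 0) of the 9 genes in each library (points) of the LFD, HFD and HFD + EC359 groups, with the mean and SD of 3 libraries (bars). Socs3, Pim1, Pim3 and Junb step down from LFD to HFD and again to HFD + EC359 without overlap between groups, whereas Cish is lowest in HFD, at 11.3 to 13.0 CPM.

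Stat3 (mm9 chromosome 11, 100748124 to 100800825, minus strand, 24 exon blocks) encodes the transcription factor itself. It measured 352, 365 and 353 CPM in LFD, 332, 355 and 346 CPM in HFD, and 315, 319.8 and 308 CPM in HFD + EC359 tumors. The LFD and HFD libraries overlapped, and all 3 HFD + EC359 libraries lay below all others. The log2 fold change in HFD compared with LFD was -0.05 (standard error 0.0379, 95% interval -0.13 to 0.03, adjusted p = 0.26, quasi-likelihood test in edgeR). With EC359 it fell relative to HFD by 0.13 on the log2 scale (standard error 0.0369, adjusted p = 0.00742, edgeR), a decline of 8.71%. This call was lost when HFD replicate 2, the highest HFD library, was left out (log2 fold change -0.11, adjusted p = 0.0666, edgeR). Removing the GC and length trend gave -0.01 for the diet and -0.12 for EC359, the latter with an adjusted p of 0.0105 in edgeR.

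Of the feedback inhibitors, Socs3 (chromosome 11, 117827401 to 117830680, minus strand), whose product binds gp130 and blocks the attached JAKs, had the highest level per kb of exon. It stood at 285, 253 and 260.0 CPM in LFD, 209, 204 and 190.3 CPM in HFD, and 157, 173 and 146 CPM in HFD + EC359 tumors. No library of one group reached the range of another. Its log2 fold change was -0.40 in HFD compared with LFD (standard error 0.0519, adjusted p = 9.81e-08, edgeR) and -0.34 with EC359 compared with HFD (standard error 0.0521, adjusted p = 4.55e-06, edgeR). Both calls stayed after the GC and length trend was removed, at -0.14 (adjusted p = 0.0077, edgeR) and -0.25 (adjusted p = 2.6e-05, edgeR).

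Cish (chromosome 9, 107199020 to 107204292, plus strand), best known as a target and inhibitor of STAT5 signaling, moved differently. Its values were 16.3, 15.8 and 13.7 CPM in LFD, 13.0, 11.3 and 12.0 CPM in HFD, and 16.6, 16.9 and 16.4 CPM in HFD + EC359 tumors. The HFD libraries were the 3 lowest and the HFD + EC359 libraries the 3 highest, although the lowest of the latter (16.38 CPM) barely exceeded the highest LFD library (16.35 CPM). With EC359 it rose relative to HFD by 0.46 on the log2 scale (standard error 0.115, adjusted p = 0.00268, edgeR), the only one of the 9 genes that rose in this comparison, and the rise was 0.52 once the GC and length trend was removed (adjusted p = 0.000597, edgeR). Its decline with the diet, -0.34 (standard error 0.128, adjusted p = 0.0264, edgeR), did not hold in several settings. That call was lost with the GC and length trend removed (-0.12, adjusted p = 0.482, edgeR), with library totals alone (adjusted p = 0.0513, edgeR) and with DESeq2 (adjusted p = 0.0969), and it was also lost when replicate 1 or 2 of LFD, or replicate 2 or 3 of HFD, was left out (adjusted p 0.0919, 0.0828, 0.0919 and 0.054, edgeR). Between 78 and 164 read pairs per library stood behind these values. Compared with LFD, Cish in HFD + EC359 tumors was 0.12 higher on the log2 scale (standard error 0.117, adjusted p = 0.388, edgeR), and 0.40 higher with the trend removed (adjusted p = 0.00422, edgeR).

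Socs3 and Cish were also the 2 genes whose promoters held the STAT recognition pattern TTCNNNGAA, and they are printed to show where it lies. The pattern is its own reverse complement, so that it reads the same on both strands. RefSeq promoter windows of 250 bases before and 50 bases after the transcription start were available for 8 of the 9 genes (GRCm38.p6, a later build than the mm9 used for counting), all except Socs2. The pattern was found in 2 of these 8 genes and in 8.3% of all 32851 windows. The Socs3 window (chr11:117969342-117969616, minus strand) held 1 copy, TTCTTAGAA, from position -154 to -146 relative to the start. The Cish window (chr9:107296409-107296683, plus strand) held 2 copies just past the start, TTCCTGGAA at positions 1 to 9 and TTCTTGGAA at positions 12 to 20. The sequences run 5′ to 3′ over 250 bases before and 25 after the start, with the pattern in capitals.
Socs3: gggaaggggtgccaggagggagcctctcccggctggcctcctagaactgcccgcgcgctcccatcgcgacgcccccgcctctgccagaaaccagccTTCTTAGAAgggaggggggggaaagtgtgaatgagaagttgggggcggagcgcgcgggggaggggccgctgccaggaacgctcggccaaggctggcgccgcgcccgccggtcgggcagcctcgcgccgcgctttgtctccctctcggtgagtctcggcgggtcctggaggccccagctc
Cish: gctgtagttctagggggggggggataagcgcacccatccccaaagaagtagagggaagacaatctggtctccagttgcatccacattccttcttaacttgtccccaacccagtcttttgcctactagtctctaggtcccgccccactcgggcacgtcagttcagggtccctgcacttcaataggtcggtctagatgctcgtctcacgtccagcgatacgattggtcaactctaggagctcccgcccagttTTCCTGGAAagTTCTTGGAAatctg
A match is a description of these letters only, and the other 6 genes with a window had none within it.

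Socs1 (chromosome 16, 10783902 to 10785629, minus strand), which inhibits JAK kinases directly, was found at 21.3, 20.1 and 18.3 CPM in LFD, 14.4, 15.6 and 14.4 CPM in HFD, and 14.8, 15.4 and 13.0 CPM in HFD + EC359 tumors. The LFD libraries were above all others, and the HFD and HFD + EC359 libraries overlapped. The log2 fold change with the diet was -0.42 (standard error 0.118, adjusted p = 0.00308, edgeR), but only -0.08 after removal of the GC and length trend (adjusted p = 0.594, edgeR). Socs1 had the highest GC content of the 9 genes. With EC359 the difference from HFD was -0.04 (95% interval -0.28 to 0.19, adjusted p = 0.83, edgeR), and its sign turned with the trend removed (0.09).

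Socs2 (chromosome 10, 94874124 to 94879491, minus strand), a regulator of growth hormone receptor signaling, had the fewest counts, 43 to 74 per library. It measured 8.79, 8.31 and 10.7 CPM in LFD, 9.32, 9.03 and 8.58 CPM in HFD, and 7.75, 6.76 and 7.19 CPM in HFD + EC359 tumors. The HFD + EC359 libraries lay below the other 6, and the LFD range enclosed the HFD range. Neither difference passed the test. It was -0.04 for the diet (95% interval -0.37 to 0.28, adjusted p = 0.832, edgeR) and -0.31 for EC359 compared with HFD (standard error 0.152, adjusted p = 0.131, edgeR). The 95% interval of the latter before adjustment, -0.62 to -0.0049, includes the change of Socs3.

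The PIM kinases, serine/threonine kinases that promote survival and growth downstream of cytokine receptors, were lower in both comparisons. Pim1 (chromosome 17, 29627990 to 29632404, plus strand) measured 124, 104 and 117 CPM in LFD, 81.2, 82.0 and 79.8 CPM in HFD, and 67.6, 72.9 and 63.7 CPM in HFD + EC359 tumors. Pim3 (chromosome 15, 88692624 to 88696156, plus strand) measured 205, 186 and 198 CPM in LFD, 99.1, 101 and 100.1 CPM in HFD, and 81.2, 78.4 and 82.8 CPM in HFD + EC359 tumors. For both kinases the 3 groups were separate, in the order LFD, HFD, HFD + EC359. Pim3 showed the largest diet effect of the 9 genes, -0.97 on the log2 scale (standard error 0.0479, adjusted p = 2.29e-17, edgeR), which was -0.67 with the GC and length trend removed (adjusted p = 3.88e-15, edgeR). Pim1 changed by -0.50 (standard error 0.0612, adjusted p = 3.23e-08, edgeR), or -0.26 with the trend removed (adjusted p = 0.000184, edgeR). With EC359, Pim3 fell by a further 0.31 (standard error 0.0506, adjusted p = 1.57e-05, edgeR) and Pim1 by 0.25 (standard error 0.0616, adjusted p = 0.00208, edgeR) on the log2 scale, and by 0.19 each with the trend removed (adjusted p = 0.00312 and 0.00964, edgeR).

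Bcl3 (chromosome 7, 20393811 to 20408104, minus strand) encodes an atypical IκB protein that joins NF-κB p50 or p52 in the nucleus. It measured 84.0, 66.0 and 70.4 CPM in LFD, 74.4, 73.7 and 69.8 CPM in HFD, and 58.8, 58.9 and 58.5 CPM in HFD + EC359 tumors. The LFD and HFD libraries overlapped, and the HFD + EC359 libraries lay below both. The drop with EC359 was -0.31 relative to HFD (standard error 0.0661, adjusted p = 0.000584, edgeR), and -0.17 without the GC and length trend (adjusted p = 0.0268, edgeR). For the diet the sign of the estimate depended on the setting. The log2 fold change was -0.0054 as tested (95% interval -0.15 to 0.14, adjusted p = 0.954, edgeR) and 0.31 with the trend removed (adjusted p = 6.98e-05, edgeR), where Bcl3 passed as higher in HFD.

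Junb (chromosome 8, 87500808 to 87502647, minus strand, 1 exon), an AP-1 subunit induced early by cytokines, measured 487, 453 and 470.2 CPM in LFD, 389, 388 and 350.4 CPM in HFD, and 279.7, 291 and 272 CPM in HFD + EC359 tumors. The 3 groups did not overlap. Its decline with EC359 was the largest of the 9 genes in that comparison, -0.42 on the log2 scale (standard error 0.0413, adjusted p = 9.02e-10, edgeR), a loss of 25.3%, and -0.29 with the trend removed (adjusted p = 3.78e-08, edgeR). The diet effect of -0.32 (standard error 0.0412, adjusted p = 7.99e-08, edgeR) shrank to -0.01 with the trend removed (adjusted p = 0.893, edgeR).

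**Figure D2:**
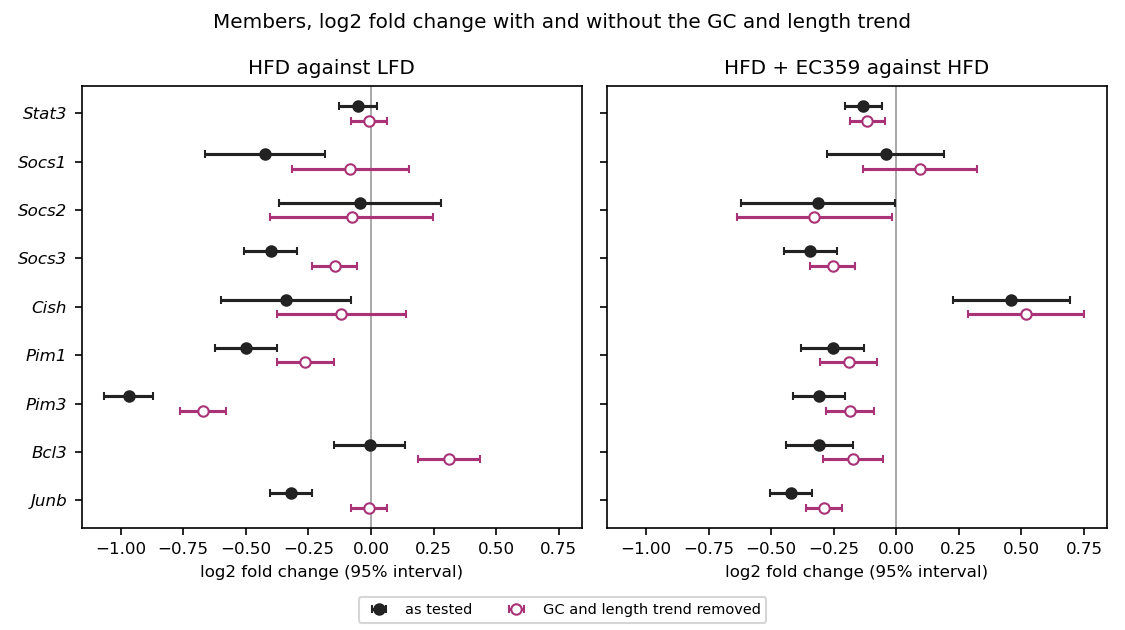
Log2 fold change (horizontal axes) of the 9 genes in HFD against LFD (left) and HFD + EC359 against HFD (right), with 95% intervals, as tested (filled) and after each library's GC and length trend was taken out (open). Removal of the trend moves Socs1, Cish and Junb to intervals that include 0 and Bcl3 to 0.31 on the left, and leaves every called gene on its side of 0 on the right.

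Counted together, 6 of the 9 genes were lower and 0 higher in HFD than in LFD tumors at an adjusted p under 0.05, where 51.8% of all tested genes passed, 25.8% lower and 26% higher (edgeR). Their median log2 fold change was -0.34, and that of all tested genes was 0.01. Groups did not overlap for 6 of the 9 genes, against 57.1% of all tested genes. LFD replicate 1 stood farthest from its group, with a mean chi-square per gene of 3.02 and 2.48 against the other LFD libraries and of 1.36 to 1.57 between all other libraries of a group, and 5 of the 9 genes, without Cish, were lower when it was left out. With the GC and length trend removed the split was 3 lower (Socs3, Pim1, Pim3) and 1 higher (Bcl3), beside 22.5% and 20.5% of tested genes. For EC359 compared with HFD, 6 were lower and 1 higher, where 26.6% of all tested genes passed, 13.9% lower and 12.7% higher, and removal of the trend left the calls of all 7, beside 13.6% and 11.3%. The median was -0.31 against 0.01 for all tested genes. Groups were separate for 8 of the 9 genes, 7 of them lower and Cish higher, against 41.3% of tested genes. With scaling by library totals alone, all tested genes split into 2094 higher and 1499 lower with EC359, in place of 1697 and 1852, and 3947 and 2968 with the diet, in place of 3473 and 3452. The same 6 and 1 members were called in that setting with EC359, and 5 lower with the diet, without Cish. At the stricter cut-offs of the study's methods (adjusted p under 0.01, fold change over 2), 0 of the 9 genes passed in either comparison, beside 5.71% and 3.43% of tested genes.

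**Figure D3:**
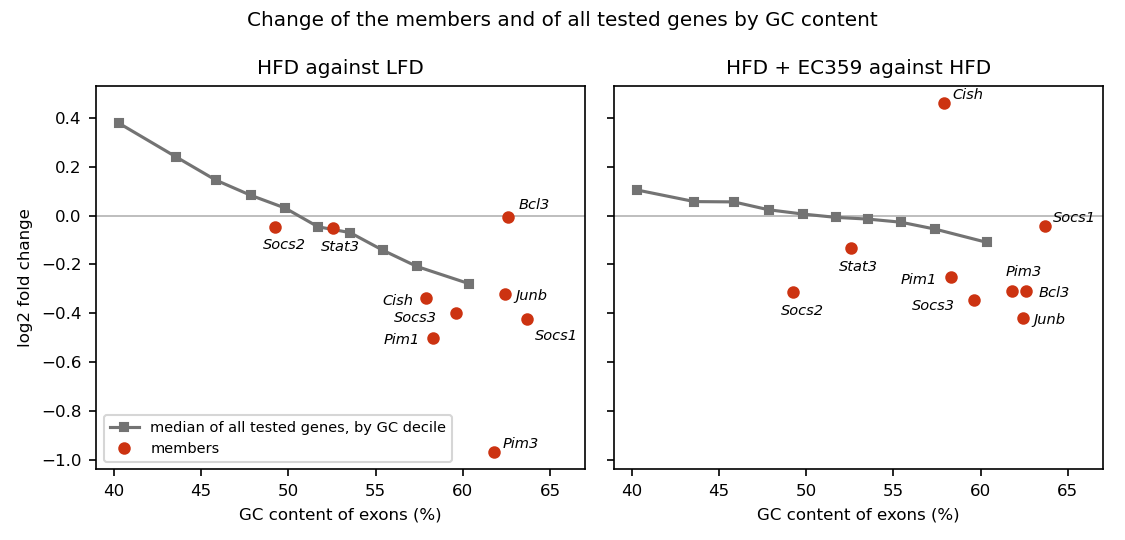
Log2 fold change (vertical axes) against the GC content of exons (horizontal axes, percent) for the 9 genes (red) and the median of all tested genes in each decile of GC content (gray). The gray line falls from 0.38 to -0.28 for the diet and from 0.11 to -0.11 for EC359. Pim3, Pim1, Socs3, Junb and Socs2 lie below the line or its last value in both panels. On the left Socs1 and Cish also lie below, Stat3 lies close to the line and Bcl3 lies above. On the right Stat3 and Bcl3 also lie below, and Cish and Socs1 lie above.

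HFD + EC359 tumors were also compared with LFD tumors, which differ in both diet and drug. In this comparison 7 of the 9 genes were lower and 0 higher, where 58.3% of all tested genes passed, 29.1% lower and 29.2% higher (edgeR), with a median of -0.47 against 0.01. Pim3 was 2.42-fold lower (log2 fold change -1.28, standard error 0.0482, adjusted p = 1.87e-20, edgeR) and alone passed the threshold of the study's methods, beside 5.09% of tested genes. Pim1, Socs3 and Junb each changed by -0.75 to -0.74 (adjusted p = 2.73e-12, 8.92e-14 and 3.87e-16, edgeR). Stat3 changed by -0.18 (adjusted p = 0.000104, edgeR) and Socs1 by -0.47 (adjusted p = 0.00082, edgeR). Bcl3 changed by -0.31 (adjusted p = 0.000265, edgeR). Groups did not overlap for 9 of 9 genes, against 62.9% of tested genes. For Cish the margin was narrow, with 16.38 CPM in the lowest HFD + EC359 library and 16.35 CPM in the highest LFD library. Without the GC and length trend, Pim3 (-0.86), Pim1 (-0.45), Socs3 (-0.40), Junb (-0.30) and Stat3 (-0.13) remained lower, Socs2 (-0.41) joined them and Cish (0.40) passed as higher, while Socs1 (0.01) and Bcl3 (0.14) no longer passed. The count was thus 6 lower and 1 higher, beside 25.9% and 23.2% of tested genes.

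Levels of the 9 genes were compared with each other per length, as CPM per kb of exon. In HFD tumors the order was Junb (204 ± 12.0, SD, n = 3), Stat3 (76.7 ± 2.58), Socs3 (73.8 ± 3.52), Pim1 (46.2 ± 0.655), Pim3 (41.4 ± 0.444), Bcl3 (39.6 ± 1.34), Socs1 (12.1 ± 0.557), Cish (5.58 ± 0.4) and Socs2 (3.33 ± 0.139). Stat3 and Socs3 did not differ beyond their spread there. In LFD tumors Socs3 (97.7 ± 6.3) and Pim3 (81.1 ± 3.93) stood above Stat3 (79.5 ± 1.67), although Pim3 and Stat3 overlapped in their spread. In HFD + EC359 tumors Stat3 (70.0 ± 1.28) was above Socs3 (58.3 ± 4.84), and Pim3 (33.4 ± 0.908) was close to Bcl3 (32.0 ± 0.116). The feedback inhibitors thus covered a wide range of levels, with Socs3 far above Socs1, Cish and Socs2 in each group.

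**Figure D4:**
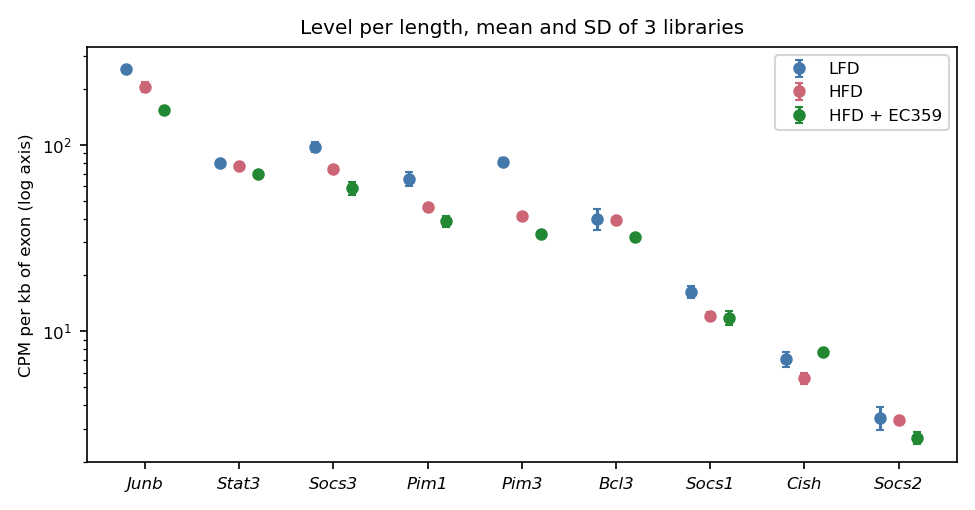
CPM per kb of exon (log axis) for the 9 genes, ordered by their HFD level, as mean and SD of 3 libraries in LFD, HFD and HFD + EC359 tumors. Junb is highest in each group, at 153 to 256, and Socs2 lowest, at 2.68 to 3.44.

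Lists of other genes of the pathway are described by their counts, beside shares of 26% higher and 25.8% lower with the diet and of 12.7% higher and 13.9% lower with EC359 compared with HFD among all tested genes (edgeR). Of 12 tested receptors and ligands of the IL-6 family, 3 were higher and 4 lower with the diet, and 3 were higher and 2 lower with EC359 compared with HFD. Lifr, which encodes the receptor that EC359 targets, had 71.7 ± 5.77 CPM in LFD, 81.3 ± 1.58 CPM in HFD and 106 ± 6.17 CPM in HFD + EC359 tumors. It rose with EC359 by 0.38 on the log2 scale (standard error 0.0553, adjusted p = 2.08e-06, edgeR), and by 0.18 with the diet (adjusted p = 0.0159, edgeR), where the estimate was -0.05 with the GC and length trend removed (adjusted p = 0.575, edgeR). The diet call was also lost with DESeq2 (adjusted p = 0.0623) and, in edgeR, without LFD replicate 2 (0.114) or HFD replicate 1 (0.0593). Il6st, the gene of gp130, rose with the diet by 0.24 (adjusted p = 2.06e-05, edgeR) and did not pass with EC359 (0.08, adjusted p = 0.166, edgeR). Osmr, the oncostatin M receptor, rose in both (0.47 and 0.19, adjusted p = 2.85e-07 and 0.0118, edgeR). Its EC359 call was lost with DESeq2 (adjusted p = 0.312) and, in edgeR, when HFD replicate 1 (0.0874), HFD replicate 2 (0.0545) or HFD + EC359 replicate 3 (0.0636) was left out. Il6ra, the IL-6 receptor, fell with the diet (-0.24) and rose with EC359 (0.26, adjusted p = 8.67e-05 and 4.66e-05, edgeR). Cntfr, the CNTF receptor, was at 2.15 ± 0.459 CPM in LFD and 0.262 ± 0.0102 in HFD tumors, below the level of 3 counts in HFD libraries. The ligand gene Lif, named after its values were seen, did not pass with the diet (0.14, adjusted p = 0.381, edgeR) and fell with EC359 by 0.74 (standard error 0.128, adjusted p = 3.7e-05, edgeR).

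The 4 JAK kinase genes had 0 higher and 1 lower with the diet and 0 higher and 2 lower with EC359. Jak2 was lower with the diet (-0.16, adjusted p = 0.000519, edgeR) and with EC359 (-0.20, adjusted p = 9.32e-05, edgeR), and Jak3 was lower with EC359 (-0.31, adjusted p = 1.87e-06, edgeR) and did not pass with the diet (0.02), where it was called higher once the trend was removed (0.29, adjusted p = 1.23e-06, edgeR). Jak1 passed in neither (0.03 and 0.04). Of the other STAT genes, Stat6 (-0.06 and -0.01) and Stat5b (0.03 and 0.03) passed in neither comparison. The 4 other SOCS genes, Socs4 to Socs7, split into 1 higher and 3 lower with the diet and 0 higher and 1 lower with EC359. Socs7 fell in both (-0.29 and -0.17, adjusted p = 9.74e-05 and 0.0238, edgeR), Socs5 fell with the diet (-0.20, adjusted p = 0.000471, edgeR) and Socs6 rose with it (0.37, adjusted p = 0.000644, edgeR), the last call being lost with the trend removed (0.16, adjusted p = 0.15, edgeR). The EC359 call of Socs7 was lost with library totals (adjusted p = 0.0627, edgeR), with DESeq2 (0.0815), with the block and the trend removed (0.0516), and in edgeR when HFD + EC359 replicate 1 (0.116) or 3 (0.0841), or HFD replicate 1 (0.157), was dropped. Of 9 PIAS and phosphatase genes that damp the pathway, 2 were higher and 3 lower with the diet, and 2 were higher and 1 lower with EC359. The tyrosine phosphatase gene Ptpn11 fell in both (-0.27 and -0.12, adjusted p = 8.5e-06 and 0.0373, edgeR), and Ptprc, which encodes the leukocyte antigen CD45, rose in both (0.72 and 0.26, adjusted p = 1.98e-11 and 0.00025, edgeR). The EC359 call of Ptpn11 was lost with library totals (adjusted p = 0.117, edgeR), with DESeq2 (0.0675), and in edgeR when HFD replicate 1 (0.124), 2 (0.0958) or 3 (0.0572), or HFD + EC359 replicate 1 (0.15) or 3 (0.105), was dropped. Ptpn1 fell with the diet (-0.29, adjusted p = 2.39e-06, edgeR).

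A longer list of 21 other STAT3 target genes had 6 higher and 10 lower members with the diet and 2 higher and 11 lower with EC359, with medians of -0.18 and -0.15, where 26% and 12.7% of all tested genes were higher and 25.8% and 13.9% lower. The corresponding counts with the GC and length trend removed were 5 and 8, and 2 and 11. Beside them, 20.5% of all tested genes were higher and 22.5% lower with the diet, and 11.3% and 13.6% with EC359. Named for their mean CPM, a scale that is not per length, were the cyclin gene Ccnd1 (-0.18 and -0.16, adjusted p = 5.1e-06 and 0.000124, edgeR), the survival gene Mcl1 (-0.48 and -0.17, adjusted p = 3.61e-10 and 0.00827, edgeR) and Cebpb, a regulator of acute-phase genes (-0.41 and -0.22, adjusted p = 3.83e-10 and 6.46e-05, edgeR). Ccnd1 and Mcl1 kept these calls with the trend removed, and Cebpb lost both (-0.01 and -0.02). The EC359 call of Mcl1 was lost without HFD replicate 1 (adjusted p = 0.0769, edgeR) or HFD + EC359 replicate 3 (0.0569). The acute-phase gene Saa3 went the opposite way with the diet. It stood at 11.0 ± 1.79 CPM in LFD, 40.7 ± 0.83 in HFD and 12.1 ± 0.616 in HFD + EC359 tumors (SD, n = 3), a log2 fold change of 1.88 with the diet and -1.76 with EC359 (adjusted p = 2.57e-15 and 7.43e-16, edgeR). Lcn2, the gene of lipocalin-2, rose with the diet by 1.33 (adjusted p = 1.14e-15, edgeR) and did not pass with EC359 (0.13, adjusted p = 0.0996, edgeR). Of 10 further genes in the study's RT-qPCR panel of LIFR targets, some of which are also in the longer list, 2 were higher and 5 lower with the diet and 2 higher and 4 lower with EC359. Akt1, a survival kinase, fell in both (-0.46 and -0.20, adjusted p = 1.89e-12 and 7.14e-05, edgeR). Hif1a, the hypoxia regulator, passed with the diet as higher (0.19, adjusted p = 0.000232, edgeR) and as lower once the trend was removed (-0.12, adjusted p = 0.0138, edgeR).

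**Figure D5:**
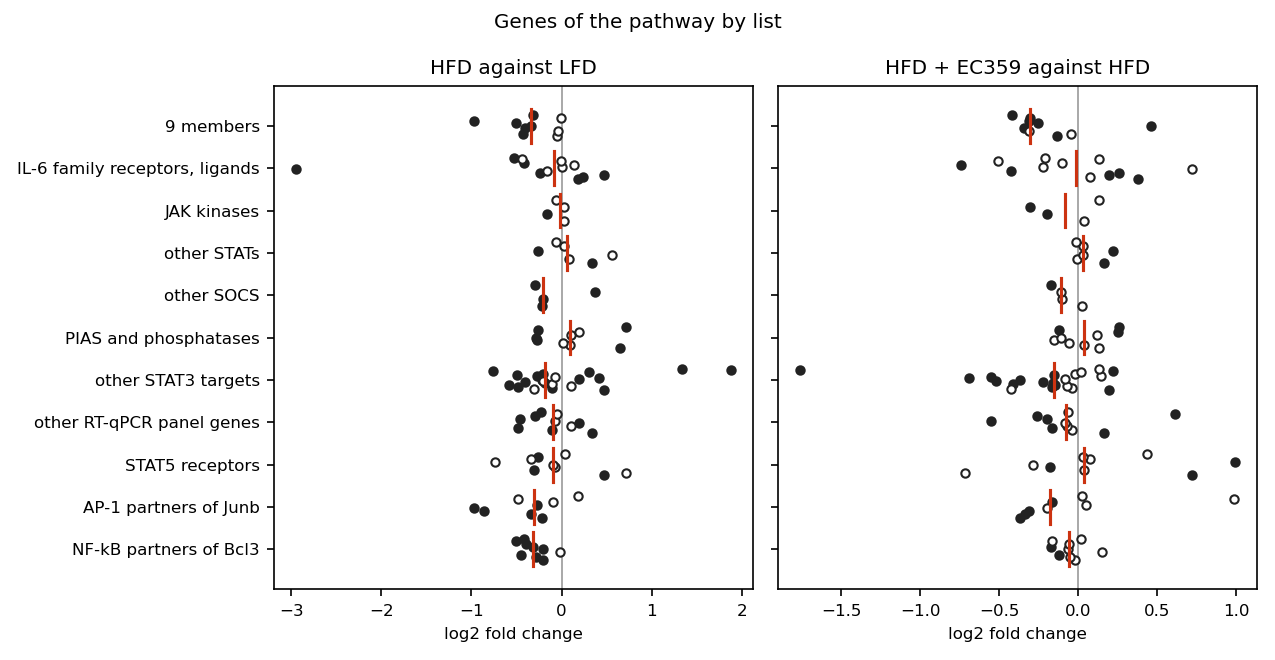
Log2 fold change (horizontal axes, scaled separately) of each tested gene in the lists of the pathway, in HFD against LFD (left) and HFD + EC359 against HFD (right). Filled points passed an adjusted p under 0.05, open points did not, and red bars give the list medians, which were -0.34 and -0.31 for the 9 members.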

How the data were processed

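Stranded mRNA libraries of tumors, 9 in all and 3 per group, were sequenced in 150-base paired ends by the authors. The authors deposited expected counts (read pairs per gene, not normalized); per the file headers they were made with featureCounts 1.5.0-p1 on mm9, reverse stranded, with a minimum mapping quality of 2 and with fractions for pairs that match several genes or positions. The submitters' processing notes name HISAT2 2.1.0 as the aligner, and the paper's methods name TopHat2 and HTSeq. Fractional counts were rounded to whole numbers here. Symbols Flg and Ly6g of the marker lists were not listed.

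Genes were filtered with filterByExpr (13366 of 22609), scaled with TMM factors and fitted in one model of the 3 groups with edgeR's quasi-likelihood test (edgeR 4.0.16, R 4.3.3) and Benjamini-Hochberg adjustment over all tested genes. "Rose", "fell", "higher" and "lower" with a count refer to an adjusted p under 0.05. The common coefficient of variation between libraries of a group, beyond counting noise, was estimated at 3.63%. Whether this spread includes that between mice is not known, so that small adjusted p-values need not hold across animals. With 3 libraries per group, the precision is also limited by their number and by 43 counts in the thinnest value of a member. GC content came from the mm9 sequence of the exons, and the trend of each library with GC content and exon length (lowess, span 0.3) entered as offsets. The alternatives were RLE factors, library totals, DESeq2 1.42.0, other count filters, the 6 libraries of a comparison alone, a replicate block, the GC and length trend removed, the study's threshold and each library left out. The steps were tested on simulated data. The members and lists were chosen with earlier results of these data known. Named were the 9 members and, from each other list, the 3 genes with the highest mean CPM, each gene that passed an adjusted p under 0.01 with a fold change over 2 in any comparison, and Lifr; Lif was added after its values were seen. Results of some genes under this rule are left out here.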

Additional observations from a re-analysis of the deposited data

How the results depend on the processing

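With the study's stricter cut-offs (adjusted p under 0.01, fold change over 2), the number of members called was 0 for the diet, 0 for EC359 compared with HFD and 1 for EC359 compared with LFD, in place of 6, 7 and 7. Of all tested genes, 5.71%, 3.43% and 5.09% passed, in place of 51.8%, 26.6% and 58.3%. With each library left out in turn, 5 to 6, 6 to 7 and 7 to 8 members were called. In the same fits 6237 to 6854, 2733 to 4232 and 7086 to 7736 of 13485 to 13528 tested genes were called. The diet estimate of Bcl3 changed sign with library totals alone (0.038), with all genes of at least 1 count (0.0017) and after removal of the GC and length trend (0.31, and 0.31 with the replicate block), and ranged from -0.086 to 0.093 over the libraries left out. Compared with LFD, Bcl3 under EC359 was 0.14 with the trend removed, with or without the block. Socs1 turned with EC359 when the trend was removed (0.094, and 0.097 with the block) and ranged from -0.098 to 0.028 over the libraries left out; compared with LFD it was 0.011 and 0.014. The diet estimate of Socs2 ranged from -0.13 to 0.075. Of the other named genes, removal of the trend without and with the block turned, for the diet, Lifr (-0.046 and -0.050), Jak1 (-0.077 and -0.076), Stat6 (0.018 and 0.016) and Hif1a (-0.12 and -0.12), and, without the block, Csf2rb (3.0e-05). Over the libraries left out, the diet estimates of Jak3 (-0.020 to 0.047) and Stat5b (-0.020 to 0.051) crossed 0, as did those of Stat6 (-0.048 to 0.0066), Stat5b (-0.0026 to 0.054) and Csf2ra (-0.046 to 0.090) with EC359. Stat6 with EC359 also turned with library totals (0.021) and with the trend removed (0.0099, and 0.010 with the block). Socs2 compared with LFD under EC359 was called with the trend removed and without LFD replicate 2 (adjusted p = 0.0363 and 0.0387, edgeR). Over the alternatives for the 9 members, 454 of 486 estimates kept their direction and their side of the threshold. The cause of the changes between settings was not tested.

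Libraries with the same replicate number did not deviate together (correlations -0.03 to 0.017, and the best match was the own number in 2 of 18 cases), so that the numbers do not pair the samples. The fit with the replicate block called 6, 7 and 7 members, as without it, and 6944, 3550 and 7773 genes in all in place of 6925, 3549 and 7787.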

Other observations

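Other AP-1 genes, and NF-κB and IκB genes, among them those of the BCL3 partners p50 and p52, were counted as well. Of 8 tested AP-1 genes other than Junb, 5 were lower and 0 higher with the diet, and 4 were lower and 0 higher with EC359 compared with HFD, where 25.8% and 13.9% of all tested genes were lower (edgeR). Jund fell by 0.86 and 0.31 on the log2 scale (standard errors 0.0527 and 0.0539, adjusted p = 5.02e-15 and 3.7e-05, edgeR's quasi-likelihood test), Jun fell by 0.34 in each (adjusted p = 7.42e-08 and 2.25e-07, edgeR), and both kept their calls with the GC and length trend removed. Fosb fell with the diet by 0.97 (adjusted p = 2.72e-07, edgeR) and Fosl2 with EC359 by 0.16 (adjusted p = 0.00377, edgeR). Of 9 NF-κB and IκB genes, 8 were lower and 0 higher with the diet, with a median of -0.32, whereas Bcl3 itself did not pass there. With the GC and length trend removed, 6 of these 9 genes and 3 of the 8 AP-1 genes were lower with the diet, beside 22.5% of all tested genes. With EC359 compared with HFD, 2 of the 9 NF-κB and IκB genes were lower and 0 higher. With the trend removed 0 were lower, beside 13.6% of all tested genes. Nfkb2, the precursor of p52, fell with the diet by 0.45 (adjusted p = 3.19e-10, edgeR), Nfkb1, the precursor of p50, by 0.28 (adjusted p = 7.18e-07, edgeR) and the inhibitor gene Nfkbia by 0.40 (adjusted p = 4.37e-09, edgeR).

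Receptors that signal through STAT5, the pathway in which Cish is best known, split into 1 higher and 2 lower of 9 tested with the diet and 2 higher and 1 lower with EC359. Of all tested genes, 26% were higher and 25.8% lower with the diet, and 12.7% higher and 13.9% lower with EC359 compared with HFD (edgeR). The counts of these receptors were thus near those shares. The growth hormone receptor gene Ghr rose with EC359 from 55.8 ± 2.37 to 91.8 ± 2.24 CPM (SD, n = 3), an increase of 0.72 on the log2 scale (SE 0.0651, adjusted p = 1.34e-10, edgeR), and 0.63 with the trend removed. Ghr also rose with the diet (0.47, adjusted p = 9.46e-06, edgeR), where Cish was lower. This diet call of Ghr was lost with the trend removed (0.13, adjusted p = 0.163, edgeR). Csf2rb, the shared beta chain of the GM-CSF, IL-3 and IL-5 receptors, fell with EC359 by 0.18 (adjusted p = 0.00614, edgeR), and its partner Csf2ra did not pass there (0.04, adjusted p = 0.733, edgeR). With the diet Csf2ra was lower (-0.30, adjusted p = 0.000896, edgeR), a call lost with the trend removed, and Csf2rb did not pass (-0.08, adjusted p = 0.2, edgeR).

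Across all tested genes, those whose log2 CPM tracked Stat3 most closely over the 9 libraries were 6030419C18Rik (Pearson's r = 0.978), Ccne1 (0.971) and Rad54l (0.968), and among those nearest to Socs3 were Camk2n2 (0.996) and Inf2 (0.995). The 9 libraries form 3 groups that also differ in their GC trend and depth, so that these values describe likeness across the groups and carry no test.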
